A study of Mus musculus with 25 samples.

Results

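Fabp4 and Fabp5 are 2 genes of the fatty acid binding protein family, and the data below are their UMI counts in single myeloid cells of the injured mouse spinal cord. They were taken by symbol from the deposited count matrices, which list 22439 genes, and all 25 libraries hold a row for each of them. The cells came from a 5 mm segment of the lesion, after removal of myelin on a percoll gradient and enrichment of myeloid cells by fluorescence sorting, and were captured on the 10x Genomics 3′ droplet platform. The deposited matrices hold 30958 cells. Every library pools tissue of 1 to 3 mice, so the library is the replicate and p-values measure the spread between libraries. The question put to these data is where and when after injury each of the 2 genes was expressed.

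Control mice (Ctrl) had the vertebral bone opened by laminectomy with no injury to the cord. The other libraries were taken after injury, on day 1 (D1), 2 (D2), 3 (D3), 10 (D10) or 21 (D21). All mice carried Cx3cr1CreERT2, an inducible Cre recombinase driven by the Cx3cr1 locus, which is active in microglia and in many monocytes and macrophages. Libraries called mixed here came from mice with this allele alone, and their sort label is YFP+. Mice with the second allele, R26tdTomato, which makes cells red (RFP) once Cre has acted, gave the libraries called resident (RFP+/YFP+) and infiltrating (RFP-/YFP+). The mixed group has 1 library from Ctrl, 3 from D1, 2 from D2, 3 from D3, 2 from D10 and 1 from D21. The resident group has 1 from Ctrl, 1 from D2, 2 from D3 and 1 from D10, and the infiltrating group has 2 from D1, 1 from D2, 1 from D3, 2 from D10 and 1 from D21. A further D3 library, called D3_conflict 1, has a title that says infiltrating and a sort label that says RFP+/YFP+, and it entered no test. Mixed libraries differ from the others in strain as well as sort, and the Ctrl_mixed 1 library is female while Ctrl_resident 1 is male. The ages of the mice are not given in the sources used here.

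Fatty acid binding proteins are small cytosolic proteins that hold a long-chain fatty acid inside a barrel of beta strands and carry it between membranes, lipid droplets, mitochondria and the nucleus. Fabp4, the adipocyte form, is abundant in fat cells and is also made by macrophages and some capillary endothelium. Fabp5, the epidermal form, is made by many cell types including macrophages, and both can bring ligands to nuclear receptors of the peroxisome proliferator-activated receptor family. Lipids released from broken myelin are taken up by microglia and by infiltrating macrophages at sites of spinal cord damage.

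The 2 genes are neighbours of common origin, and how far their sequences differ decides whether short reads can be told apart. On GRCm38, with the GENCODE M21 annotation, Fabp5 (ENSMUSG00000027533.10) lies at chr3:10012548-10016607 on the plus strand and Fabp4 (ENSMUSG00000062515.3) at chr3:10204088-10208576 on the minus strand. They are 187480 bases apart, and 6 annotated genes lie between them, among them the family members Pmp2 and Fabp9. Each has 4 exons, and no other gene overlaps either. The transcripts are close in length, 987 bases for Fabp5 and 896 for Fabp4, and a 3′ UMI is counted once per captured molecule, so levels are set side by side in counts per 1000000 UMIs (CPM) without a division by length. The coding parts, of 408 and 399 bases, were identical at 245 of 408 aligned positions (60.05%). The stretch printed here, read 5′ to 3′ from the annotated transcripts (coding bases 341 to 400 of Fabp5 and 335 to 394 of Fabp4), shows how the differences are spread, with capitals at the 21 of 60 bases where the other gene has a different base.
Fabp5: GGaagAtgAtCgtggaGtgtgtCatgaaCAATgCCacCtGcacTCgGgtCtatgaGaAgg
Fabp4: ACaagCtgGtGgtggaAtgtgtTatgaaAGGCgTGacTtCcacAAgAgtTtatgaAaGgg
Over the whole transcripts the longest run shared by the 2 genes was 12 bases. Fabp5 has 5 processed pseudogenes in the annotation that are at least 85% identical to it over at least 90 bases. None of them has a row in the matrices, and how the authors' counting treated reads that match both Fabp5 and a pseudogene is not given in the sources used here. No such copy was found for Fabp4.

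The deposited cell table gives 4 cell type codes and 16 cluster codes without names, and the codes were named from marker lists. Microglia are the 13289 cells (42.9%) of the first code, in which all 11 listed microglia markers passed. Macrophages, as a short name, are the 12841 cells (41.5%) of the second, in which 5 of 9 macrophage and 4 of 8 monocyte markers passed. The third, with 2712 cells, passed for 7 of 9 dendritic cell markers, and the fourth, with 2116 cells, for 8 of 8 neutrophil markers, so they are named dendritic-like and neutrophil-like. Library size ran from 155 to 3800 cells and from 486649 to 33204422 UMIs, and the Ctrl libraries held microglia alone. D3_mixed 3 stands apart for both genes, and results that rest on it are given with and without it.

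Fabp5 counts exceeded Fabp4 counts many times over, and both sat mostly in macrophages. In all, 642950 UMIs of Fabp5 were found in 12440 cells (40.2% of all cells), and 21027 UMIs of Fabp4 in 3262 cells (10.5%). Macrophages held 95.3% of the Fabp5 and 97.7% of the Fabp4 UMIs. Fabp4 was the more concentrated of the pair: the 310 cells with the highest counts (1% of all cells) held 43.5% of its UMIs, against 17.4% for Fabp5. The highest count in a single cell was 776 UMIs for Fabp5 and 155 for Fabp4. The D3_mixed 3 library alone gave 47.8% of the Fabp5 and 49.8% of the Fabp4 UMIs. Without it, macrophages still held 91.6% of the Fabp5 and 96.7% of the Fabp4 UMIs.

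By the mean over libraries, the level of Fabp5 was highest in macrophages, followed by microglia, dendritic-like and neutrophil-like cells. These levels are a description, with no test, because the codes come from the genes of the same cells. Over the 15 macrophage sums (cells of 1 type in 1 library, at least 20 cells, infiltrating and mixed libraries), Fabp5 stood at 3175 ± 3655 CPM (mean ± SD), with a lowest value of 397, a median of 1849 and a highest of 13838. Over the 17 microglia sums (resident and mixed libraries) it stood at 386 ± 349 CPM, with a lowest value of 7.68, a median of 253 and a highest of 1186. In the 9 dendritic-like sums Fabp5 stood at 287 ± 321 CPM, and in the 4 neutrophil-like sums at 138 ± 18.2 CPM. The ranges of macrophages and microglia overlap, as do those of microglia and dendritic-like cells, so the order of these neighbours is not beyond their spread. The macrophage sums also hold no Ctrl library. In the 14 libraries that gave sums of both types, Fabp5 was higher in macrophages in 10 and in microglia in 4, all 4 from D10 or D21: D10_mixed 1 (640 CPM in microglia, 607 in macrophages), D10_mixed 2 (532 and 397), D10_infiltrating 2 (3044 and 1157) and D21_infiltrating 1 (1722 and 456). Without D3_mixed 3 the means were 2413 ± 2239 CPM in macrophages and 338 ± 296 in microglia.

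Fabp4 had a far lower mean than Fabp5 in every cell type, and macrophages again had the highest. The macrophage sums stood at 97.7 ± 122 CPM (lowest 4.24, median 43.9, highest 468). The other types lay within each other's spread, at 8.67 ± 18.8 CPM in microglia (median 3.38), 7.74 ± 11.1 in dendritic-like cells and 7.61 ± 5.90 in neutrophil-like cells. Without D3_mixed 3 the means were 71.3 ± 67.8 CPM in macrophages, 4.27 ± 4.76 in microglia and 5.91 ± 10.3 in dendritic-like cells. Of the 14 libraries with both types, Fabp4 was higher in macrophages in 12, the exceptions being D10_infiltrating 2 and D21_infiltrating 1. In these pooled sums, a change in the number of expressing cells and a change in the amount per cell cannot be told apart, and the shares of positive cells and the values per cell are therefore given beside them.

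The share of cells with at least 1 UMI was compared after each cell had been thinned at random to 1000 UMIs, since median depth ran from 2154 UMIs in neutrophil-like cells and 3062 in microglia to 9144 in macrophages and 11361 in dendritic-like cells. On that footing 46.6 ± 21.9% of macrophages and 17.8 ± 12.4% of microglia had Fabp5 (mean ± SD over libraries). The shares in dendritic-like and neutrophil-like cells were 6.50 ± 3.65% and 8.68 ± 3.28%, and they serve as the level that free RNA in a droplet could give. Those sums came mostly from infiltrating libraries, while the microglia sums came from resident and mixed ones. Fabp4 was found in 5.61% of thinned macrophages on average, and in 0.659% of microglia, 1.01% of dendritic-like and 0.789% of neutrophil-like cells. Without D3_mixed 3 the shares were 4.32% of macrophages, 0.315% of microglia and 0.423% of dendritic-like cells. The Fabp4 share of microglia is thus not above that of the dendritic-like and neutrophil-like cells, with or without that library.

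**Figure D1:**
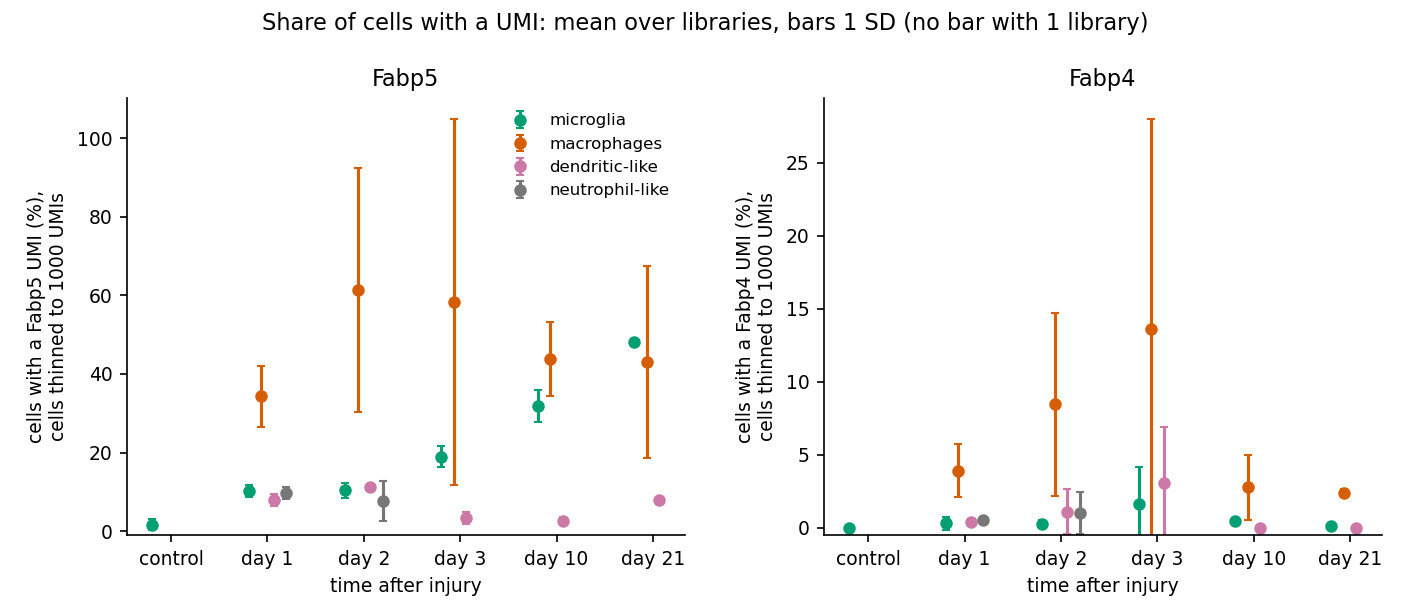
Share of cells with at least 1 UMI of Fabp5 or Fabp4 (percent, cells thinned to 1000 UMIs) by time point for each cell type, points the mean over libraries and bars 1 SD. For Fabp5 the microglial share runs from 1.66% at Ctrl to 48.1% at D21, while the means of dendritic-like and neutrophil-like cells reach at most 11.3%.

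In microglia, Fabp5 was low in the uninjured cord and higher at every time point after injury. The 2 Ctrl libraries stood at 7.68 and 21.6 CPM. The 3 D1 libraries stood at 142, 142 and 233 CPM, and the 3 D2 libraries at 178, 209 and 163 CPM. All 6 of these lie above both Ctrl values, and the D1 and D2 ranges overlap.
At D3 the 2 resident libraries stood at 361 and 476 CPM and the 3 mixed libraries at 264, 253 and 1157 CPM. At D10 the resident library stood at 596 CPM and the 2 mixed libraries at 640 and 532 CPM, and the single D21 library stood at 1186 CPM. Every D3 value lies above every D1 and D2 value. The D10 values lie above those of D3 except for the 1157 CPM of D3_mixed 3, which is near the D21 level.
Part of these values came from cluster 2, a low-depth cluster with oligodendrocyte markers that had no cell in the Ctrl microglia. It held 907 of the 3308 microglia of D1 and 41.1% of their Fabp5 UMIs, with 56.8% in D1_mixed 3, and it held less of them later, with 583 of 1824 in D2 and 993 of 5447 in D21. Without it the D1 libraries stood at 109, 113 and 145 CPM, the D2 libraries at 132, 127 and 153 CPM and the D3 libraries at 182 to 1044 CPM, so every D3 value still lay above every D1 and D2 value.

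edgeR's quasi-likelihood test on the summed counts, with Benjamini-Hochberg adjustment over the 10801 genes tested, called Fabp5 higher than Ctrl at all 5 time points. The log2 fold change was 4.27 at D1 (SE 0.65, adjusted p = 8.08e-05), 4.15 at D2 (SE 0.64, adjusted p = 2.3e-04) and 5.71 at D3 (SE 0.67, adjusted p = 1.74e-05). It was 6.0 at D10 (SE 0.69, adjusted p = 2.92e-05) and 7.49 at D21 (SE 0.80, adjusted p = 1.37e-05). D21 has 1 library, so its error assumes that this library varies like those of the other time points. A call on its own says little at the early times, since 46.6% of all genes tested were called at D1, 29.7% at D2 and 37.6% at D3, against 10.3% at D10 and 6.98% at D21. Counting calls upward alone, the shares were 23.9, 17.6, 20.1, 8.06 and 6.12%. D3 was also higher than D1, by 1.44 (SE 0.43, adjusted p = 0.0274, with 18.8% of genes called), while D10 against D3 gave 0.29 (SE 0.41, adjusted p = 0.680, with 6.88% of genes called). The D3 against D1 call was lost without D3_mixed 3 (0.88, adjusted p = 0.0701), without D1_mixed 1 (1.29, adjusted p = 0.104) and without D1_mixed 2 (1.32, adjusted p = 0.114). Among mixed libraries alone the D10 against Ctrl call was lost as well (log2 fold change 7.42, adjusted p = 0.0541).

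The libraries were run in 7 pools, as coded in the deposited cell table, and the pools overlap only in part with time. Within the pool that held Ctrl_mixed 1, microglial Fabp5 went from 7.68 CPM at Ctrl to 640 and 532 CPM in the 2 D10 libraries. Within the pool that held Ctrl_resident 1, it went from 21.6 CPM at Ctrl to 178 at D2 and 596 at D10. A further pool held the 3 D1 libraries (142, 142 and 233 CPM) and the D21 library (1186 CPM). No pool held Ctrl together with D1, D3 or D21, so within a pool these time points cannot be compared with Ctrl.

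**Figure D2:**
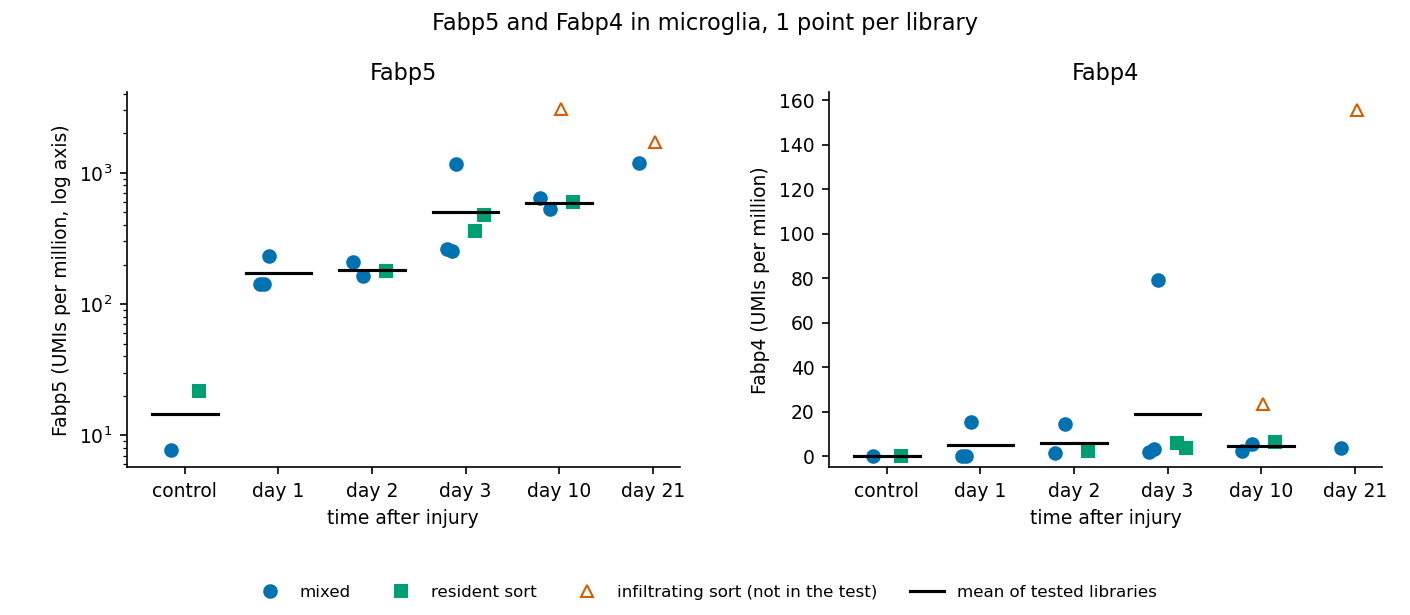
Level of Fabp5 (CPM, log axis) and Fabp4 (CPM, linear axis) in the microglia of each library by time point, filled symbols for the tested resident and mixed libraries, open symbols for infiltrating libraries outside the test, and bars for the mean of the tested libraries. Fabp5 lies at 7.68 and 21.6 CPM in Ctrl and between 532 and 640 CPM at D10, and D3_mixed 3 is the high D3 point for both genes.

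The share of microglia with Fabp5 was also higher at later times. After thinning it was 1.66 ± 1.36% in Ctrl (n = 2), 10.1 ± 1.58% in D1 (n = 3), 10.3 ± 1.86% in D2 (n = 3), 19.0 ± 2.56% in D3 (n = 5), 31.8 ± 4.06% in D10 (n = 3) and 48.1% in the D21 library. Without thinning the same shares were 4.74%, 18.9%, 18.8%, 27.7%, 48.2% and 70.3%. At D1 the thinned microglial shares were 8.47, 10.4 and 11.6% in the mixed libraries, beside 10.9 and 8.57% in the neutrophil-like cells of the 2 infiltrating libraries. At D2 they were 12.4% in the resident and 9.98 and 8.70% in the mixed libraries, beside 11.2% (infiltrating) and 4.08% (mixed) in neutrophil-like cells. The ranges overlap at both times, with 1 D1 and 1 D2 library above the highest neutrophil-like value. At D1 macrophages made up 69.5 and 68.1% of the cells of those infiltrating libraries, against 1.49 to 3.92% in the mixed ones. The D1 comparison thus crosses libraries of unlike make-up, and expression cannot be told from free RNA in these shares. D2_mixed 2 alone gave sums of both types, at 8.70% of 23 microglia and 4.08% of 49 neutrophil-like cells. The neutrophil-like Fabp5 level was 128 and 136 CPM in the 2 D1 sums, and 165 and 125 CPM in the 2 D2 sums. The D3, D10 and D21 shares lay above every neutrophil-like sum of the infiltrating and mixed libraries. Those sums are all from D1 or D2, so none comes from the same libraries or days.

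The high D3_mixed 3 value came from a small part of its microglia. Its thinned Fabp5 share, 19.8%, lay within the 16.6 to 22.9% of the other 4 D3 libraries, while its 99th percentile per cell was 13795 CPM against 2608 to 8706 CPM in those 4. Its Fabp4 share was 6.15%, against at most 0.935%. Macrophages made up 83.2% of the cells of that library and 0.395 to 25.2% of the cells of the other 4. In the same library the dendritic-like cells had 30.8 CPM of Fabp5 (exact 95% counting interval 15.4 to 55.02), under its microglia at 1157 and its macrophages at 13838 CPM. For Fabp4 the same dendritic-like cells were close to the microglia in share, at 5.75% of thinned cells from 87 cells, with a level of 22.4 CPM, against at most 2.22% in the other dendritic-like sums. The Fabp4 share of that library was thus high in the microglia and in the dendritic-like cells alike. The part of free RNA or of mixed droplets in the microglial value was not tested.

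Markers of other cells moved with time in these sums and are given beside the Fabp5 result. The summed level of the 11 microglia markers was 28525 to 30681 CPM in Ctrl, 4844 to 9159 in D1, 7150 to 13794 in D2, 11126 to 14765 in D3, 14550 to 16920 in D10 and 11677 in D21. The 9 macrophage markers summed to 704 to 914 CPM in Ctrl, 2376 to 3469 in D1, 1417 to 1725 in D2, 1789 to 2635 in D3, 1385 to 1466 in D10 and 2016 in D21. Monocyte markers never summed to more than 183 CPM. Adipocyte markers, 7 genes including Adipoq, summed to 0 to 1.28 CPM with 4 to 7 of them at 0. The part of the microglia and macrophage marker shifts in the Fabp5 result was not tested.

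Fabp4 was not detected in control microglia and stayed scarce after injury. Neither Ctrl library had a count, which allows at most 0.659 CPM in Ctrl_mixed 1 and 1.99 CPM in Ctrl_resident 1 (upper ends of exact 95% intervals, counting error only). At D1 the 3 libraries stood at 0, 0.285 and 15.5 CPM, and at D2 at 2.44, 1.5 and 14.8 CPM, the last from 23 cells. At D3 the values were 5.96, 3.85, 2.06, 3.38 and 79.2 CPM, at D10 6.65, 2.25 and 5.60 CPM, and at D21 3.92 CPM. A single library is thus far above the rest at D1 and again at D3. Cluster 2 held 63 of the 67 Fabp4 UMIs of D1_mixed 3, which stood at 1.34 CPM without it, and 8 of the 126 of D3_mixed 3, which stood at 75.6 CPM without it. It also held 30 of the 50 D10 and 10 of the 18 D21 UMIs.
Against a floor of 3 counts over the UMIs of both Ctrl libraries, pooled Fabp4 was at least 13.6-fold higher in D1, 6.01-fold in D2, 66.2-fold in D3, 10.9-fold in D10 and 9.73-fold in D21. Single libraries carried 3 of these bounds: D21 has 1 library, D1_mixed 3 gave 67 of the 68 D1 counts, and D3_mixed 3 gave 126 of the 140 D3 counts. Without these mixed D1 and D3 libraries D1 was left with 1 count in 2 libraries (0.124 CPM, under the floor, so no bound), and D3 with 14 counts and at least 9.51-fold. edgeR called Fabp4 at D3 (adjusted p = 0.0178) and not at D1 (0.0751), D2 (0.224), D10 (0.187) or D21 (0.241). The D3 call was lost without either Ctrl library (adjusted p = 0.124 and 0.0889), and with pool as a term (0.518). D3 against D1 gave a log2 fold change of 1.90 (SE 1.11, adjusted p = 0.251), which became -0.68 without D3_mixed 3 and 7.02 (adjusted p = 0.0136) without D1_mixed 3. D10 against D3 gave -2.11 (SE 1.23, adjusted p = 0.280).

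Infiltrating libraries held few cells coded as microglia, and these were kept out of the test. The 36 such cells of D10_infiltrating 2 stood at 3044 CPM of Fabp5 and 23.8 CPM of Fabp4, and the 41 of D21_infiltrating 1 at 1722 and 156 CPM. All 4 values exceed those of the resident and mixed microglia of the same day.

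In macrophages both genes were present from the first time point, and libraries of the same time point differed widely. The 2 infiltrating D1 libraries stood at 2904 and 3629 CPM of Fabp5 and the 2 mixed ones at 1123 and 1209 CPM. At D2 the infiltrating library stood at 1980 CPM and the mixed ones at 7279 and 7207 CPM. At D3 the infiltrating library stood at 1794 CPM and D3_mixed 3 at 13838 CPM, the highest of the series.
At D10 the infiltrating libraries stood at 2191 and 1157 CPM and the mixed ones at 607 and 397 CPM, and at D21 the values were 456 (infiltrating) and 1849 CPM (mixed). Every D10 value but 2191 lies below every D2 and D3 value, and D21 overlaps D10. The 3 highest values, from both D2_mixed libraries and D3_mixed 3, came from 1 pool, in which D21_infiltrating 1 stood at 456 CPM. That pool held no D1 library. The pool of the infiltrating D1 libraries also held D2_infiltrating 1 (2904 and 3629 CPM at D1, 1980 at D2), and the pool of the mixed D1 libraries held D21_mixed 1 (1123 and 1209 CPM at D1, 1849 at D21).

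None of the time contrasts of Fabp5 in macrophages passed the threshold in edgeR's quasi-likelihood test over 8577 genes. Against D1, the log2 fold change was 1.02 at D2 (SE 0.80, adjusted p = 1), 2.32 at D3 (SE 0.88, adjusted p = 0.644), -1.13 at D10 (SE 0.76, adjusted p = 0.337) and -1.09 at D21 (SE 1.01, adjusted p = 0.563). D10 against D3 gave -3.46 (SE 0.92, adjusted p = 0.0882). Of all genes, 0% were called for D2 and 0% for D3, 14.4% for D10, 3.56% for D21 and 0.676% for D10 against D3. At an unadjusted p under 0.05, edgeR had 123 genes at D2 and 612 at D3, and DESeq2 called 0 and 16 genes in those contrasts after adjustment.
The direction of the early contrasts rested on single libraries. D2 against D1 became -0.25 without D2_mixed 2, and D3 against D1 became -0.49 without D3_mixed 3. D10 against D3 became -0.66 without D3_mixed 3 and passed the threshold without D3_infiltrating 1 (-4.31, adjusted p = 0.0416) and in DESeq2 (-3.41, adjusted p = 0.00627). Among infiltrating libraries alone, which leaves 1 library at D2, D3 and D21, D21 against D1 passed (-2.98, adjusted p = 0.0160), with the spread taken from the D1 and D10 pairs alone and assumed for the single D21 library.

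**Figure D3:**
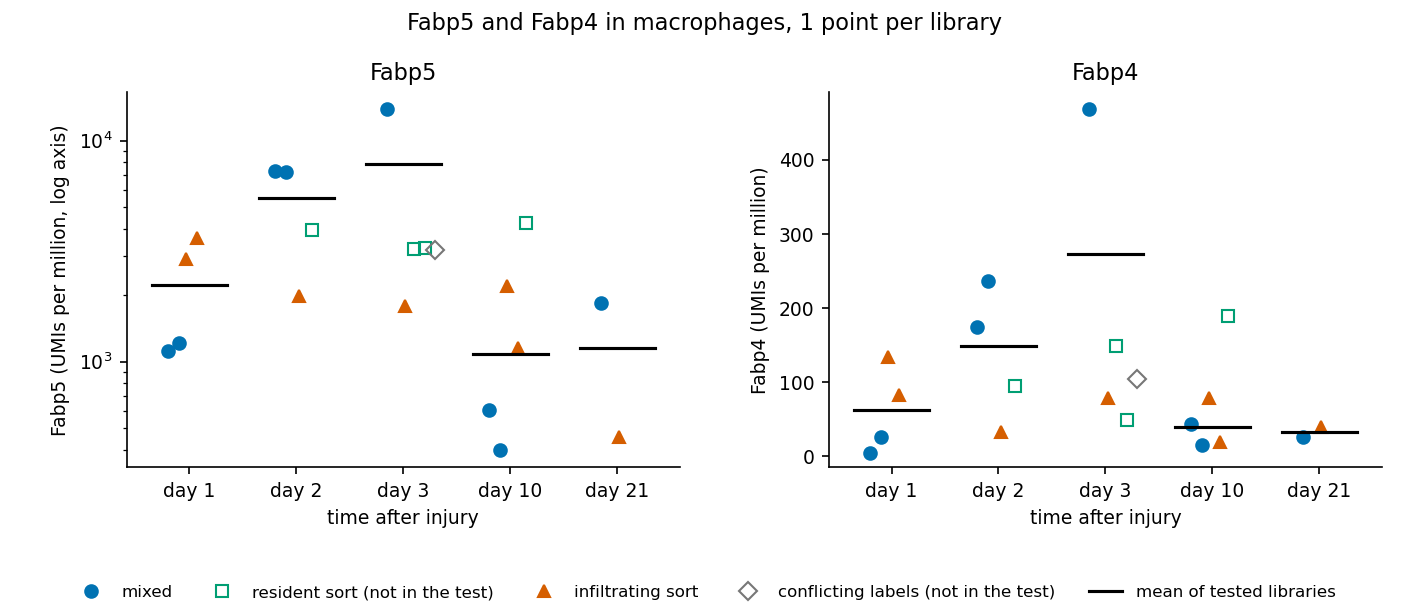
Level of Fabp5 (CPM, log axis) and Fabp4 (CPM, linear axis) in the macrophages of each library by time point, filled symbols for the tested infiltrating and mixed libraries, open symbols for resident libraries and D3_conflict 1, which were outside the test, and bars for the mean of the tested libraries. The 2 tested D3 libraries lie at 1794 and 13838 CPM of Fabp5, further apart than the means of any 2 time points.

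Fabp4 in macrophages was much lower than Fabp5 in every library. The D1 libraries stood at 134 and 83.5 CPM (infiltrating) and 4.24 and 26.8 CPM (mixed), and the D2 libraries at 33.6 CPM (infiltrating) and 174 and 237 CPM (mixed). The D3 values were 78.8 CPM (infiltrating) and 468 CPM (mixed), the D10 values 78.8, 19.8, 43.9 and 15.5 CPM, and the D21 values 39.7 and 26.9 CPM. Both D3 values lie above both D21 values, and all other pairs of time points overlap.
Fabp4 passed in none of the contrasts: 1.02 at D2 (SE 0.84, adjusted p = 1), 2.50 at D3 (SE 0.95, adjusted p = 0.644), -0.76 at D10 (SE 0.82, adjusted p = 0.569), -0.88 at D21 (SE 1.10, adjusted p = 0.682) and -3.26 for D10 against D3 (SE 0.98, adjusted p = 0.116), all from edgeR. Without D3_mixed 3 the D3 against D1 value was -0.01, and with pool as a term D2 against D1 became -1.07. Among infiltrating libraries alone, with 2 libraries each at D1 and D10 and the spread taken from them alone, the fall at D10 against D1 passed (-1.35, adjusted p = 0.0175).

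Within the macrophages the distribution over cells was broad. In D1_infiltrating 1, D2_infiltrating 1 and D3_infiltrating 1 the median cell had no Fabp5 UMI, while the 90th percentile stood at 7884, 6266 and 5517 CPM. In D3_mixed 3 the median cell stood at 12474 CPM and 61.6% of cells exceeded 10000 CPM, against 0 to 25.6% in every other macrophage sum. The thinned share of Fabp5-positive macrophages was 34.3 ± 7.81% at D1 (n = 4), 61.5 ± 31.0% at D2 (n = 3), 58.3 ± 46.6% at D3 (n = 2), 43.8 ± 9.53% at D10 (n = 4) and 43.0 ± 24.3% at D21 (n = 2), and 91.3% in D3_mixed 3. The macrophage markers in these sums were lower late than early, at 10674 to 18038 CPM in D1, 14390 to 15378 in D2, 9517 to 13537 in D3, 2415 to 5432 in D10 and 2741 to 4166 in D21. Microglia markers in the same sums were higher late, at 319 to 1408 CPM at D1 and 2607 to 4794 at D21, and their part in the Fabp5 values was not tested.

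Resident libraries also held cells coded as macrophages, outside the test. Their Fabp5 level was 3927 CPM in D2_resident 1, 3220 and 3261 CPM in the 2 D3 libraries and 4216 CPM in D10_resident 1, and their Fabp4 level 94.7, 149, 48.9 and 190 CPM. The D10 value lies above all 4 tested D10 libraries for both genes. The D3_conflict 1 macrophages stood at 3193 CPM of Fabp5 and 104 CPM of Fabp4.

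The reporter sort, tested over all cells of the 7 infiltrating and 5 resident libraries with time and sex as terms, gave small values for both genes. Only D2 (1 infiltrating and 1 resident library), D3 (1 and 2) and D10 (2 and 1) hold both sorts, so the sort is compared within these days. The D2_infiltrating 1 library, female by its labels, carries the code of the male libraries in the deposited cell table, and the label was used. Infiltrating against resident gave a log2 fold change of 0.03 for Fabp5 (SE 0.37, adjusted p = 0.974) and 0.11 for Fabp4 (SE 0.30, adjusted p = 0.859) in edgeR, where 11.2% of 11548 genes were called. Without D2_infiltrating 1 the values were -0.35 for Fabp5 (adjusted p = 0.768) and 0.32 for Fabp4 (adjusted p = 0.748), and 251 genes were called in place of 1295. In macrophages, leaving out that library changed the direction or the call of neither gene in any time contrast. These sums mix cell types in different proportions, since macrophages made up 55.6 to 90.3% of infiltrating libraries and at most 25.2% of resident ones.

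Whether the 2 cell types changed differently with time was tested as an interaction over both sets of sums. Several mixed libraries gave a sum of each cell type. The edgeR fit treated these as independent, while the limma voom alternative kept the library as a random block. For D3 against D1, macrophages minus microglia gave 0.73 for Fabp5 (adjusted p = 0.846) and 0.41 for Fabp4 (adjusted p = 0.971), with 0.0871% of 11486 genes called. For D10 against D1, Fabp5 gave -2.68 (SE 1.00, adjusted p = 0.0753), just outside the threshold, with 12.6% of genes called, and Fabp4 gave -0.41 (adjusted p = 0.913). The Fabp5 difference passed in DESeq2 (-2.65, adjusted p = 0.0407), in limma voom with library as a random block (-2.71, adjusted p = 0.0478) and without cluster 9 (-2.98, adjusted p = 0.0247). Leaving out 1 library at a time, its adjusted p ran from 0.0255, without D3_mixed 3, to 0.214, without D10_mixed 2, and it passed for 3 of the 24 libraries left out.

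Across the 16 deposited clusters Fabp5 spanned 3 orders of magnitude, again as a description with no test. By the median over libraries, clusters 11, 9 and 8, all of macrophages, led those with more than 1 library. Cluster 11 stood at 4813 CPM (2388 to 7775 in 9 libraries), cluster 9 at 3349 CPM (639 to 14732 in 8 libraries) and cluster 8 at 2776 CPM (1079 to 8508 in 7 libraries). Other clusters of macrophages were lower, with cluster 14 at 430 CPM (2 libraries) and cluster 12 at 186 CPM (5 libraries). Cluster 10 had 1 library with enough cells, D3_mixed 3, at 7534 CPM, and stood at 122 CPM over the 75 cells of the others. The first of the clusters of mostly microglia was cluster 2 at 1665 CPM, with 1801 microglia among 1924 cells, the oligodendrocyte markers Mbp and Mobp and a median depth of 1876 UMIs. Cluster 3, with 3312 microglia among 3660 cells, followed at 735 CPM. The ranges of clusters 11, 9, 8 and 2 overlap, so their order is not beyond the spread over libraries.
At the low end stood cluster 13 at 17.5 CPM, cluster 1 at 14.6 CPM and cluster 7 at 7.70 CPM. Cluster 1 carries all 11 microglia markers and its sums came from the 2 Ctrl libraries. The other cluster with all 11 of them, cluster 4, stood at 330 CPM (37.1 to 525.8 in 6 libraries).

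**Figure D4:**
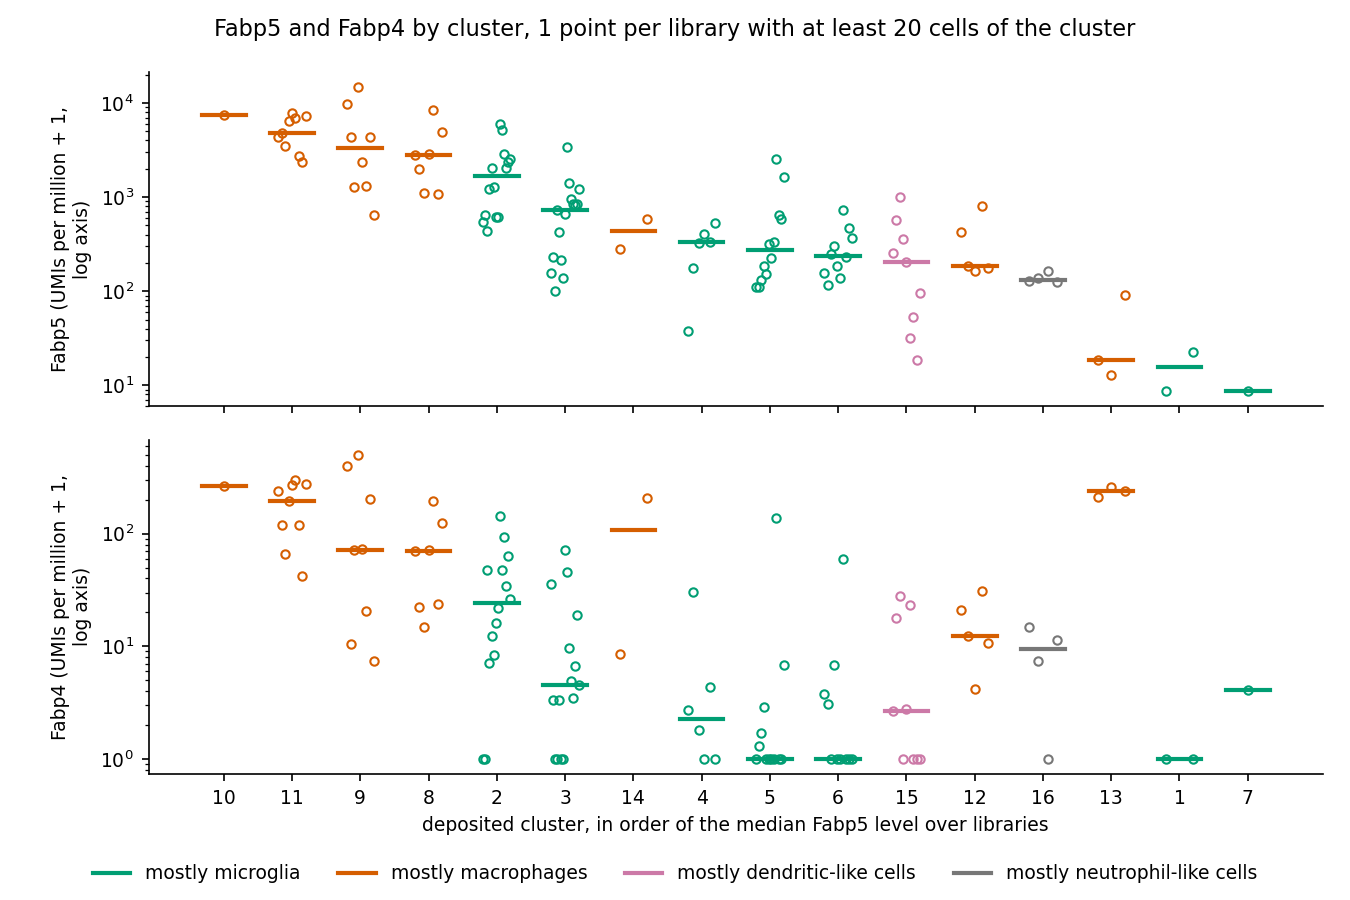
Level of Fabp5 and Fabp4 (CPM + 1, log axis) in each deposited cluster, points for libraries with at least 20 cells, bars for the median over libraries, clusters ordered by the library median of Fabp5 and coloured by the cell type most of their cells carry. Clusters 11, 9 and 8 have Fabp5 medians of 4813, 3349 and 2776 CPM, and cluster 13 is high for Fabp4 at 239 CPM and low for Fabp5 at 17.5 CPM.

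Cluster 9, which has the macrophage markers Ms4a7 and Gpnmb and is left unnamed because it rests on fewer than 3, held 50.6% of all Fabp5 and 52.9% of all Fabp4 UMIs. D3_mixed 3 supplied 2676 of its 3554 cells, at 14732 CPM of Fabp5 and 499 CPM of Fabp4. The remaining libraries ranged from 639 CPM to 9857 CPM in the 52 cells of D1_infiltrating 1. Without D3_mixed 3 the pooled cluster 9 level was 4351 CPM of Fabp5 and 160 CPM of Fabp4, about that of cluster 11 at 4337 and 155 CPM. Thinned shares of Fabp5-positive cells were 86.4% in cluster 9, 52.8% in cluster 11, 40.1% in cluster 8 and 34.4% in cluster 3, against 1.17% in cluster 1. Without D3_mixed 3 the share of cluster 9 was 58.3% and that of cluster 11 52.8%.

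Cluster 13 was the only cluster with more Fabp4 than Fabp5. It holds 234 cells, has the monocyte markers Ly6c2, Ccr2, Plac8 and S100a4, and is led by Ear2, Ace, Cd300e, Adgre4 and Treml4, genes known from patrolling monocytes, and is called monocyte-like. Its Fabp4 level against its Fabp5 level was 210 against 17.5 CPM in D1_infiltrating 1 (25 cells), 260 against 11.8 CPM in D3_infiltrating 1 (39 cells) and 239 against 90.2 CPM in D10_infiltrating 1 (36 cells). Fabp4 exceeded Fabp5 in all 3 libraries. Over the cluster's cells of all libraries but D3_conflict 1, Fabp4 and Fabp5 had 50 and 3 UMIs at D1, 81 and 3 at D3, and 78 and 46 at D10. Over all 234 cells they had 284 and 214, so the remaining cells held more Fabp5 than Fabp4. The highest Fabp5 count in a single cell of the cluster was 131 UMIs. Pooled over all its cells, cluster 13 had 0.754 Fabp5 UMIs for each Fabp4 UMI, while the ratio was 29.2 in cluster 9, 27.9 in cluster 11, 46.2 in cluster 8 and 114 in cluster 3. Its thinned share of Fabp4-positive cells, 16.2%, was second to the 20.8% of cluster 9 and above the 4.55 to 7.14% of clusters 8, 10, 11 and 14. Without D3_mixed 3 it was 15.9%, against 6.74% in cluster 9 and 7.06% in cluster 11, and so the highest of all clusters. Its median depth, 7048.5 UMIs, was close to that of cluster 9 (7117).

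**Figure D5:**
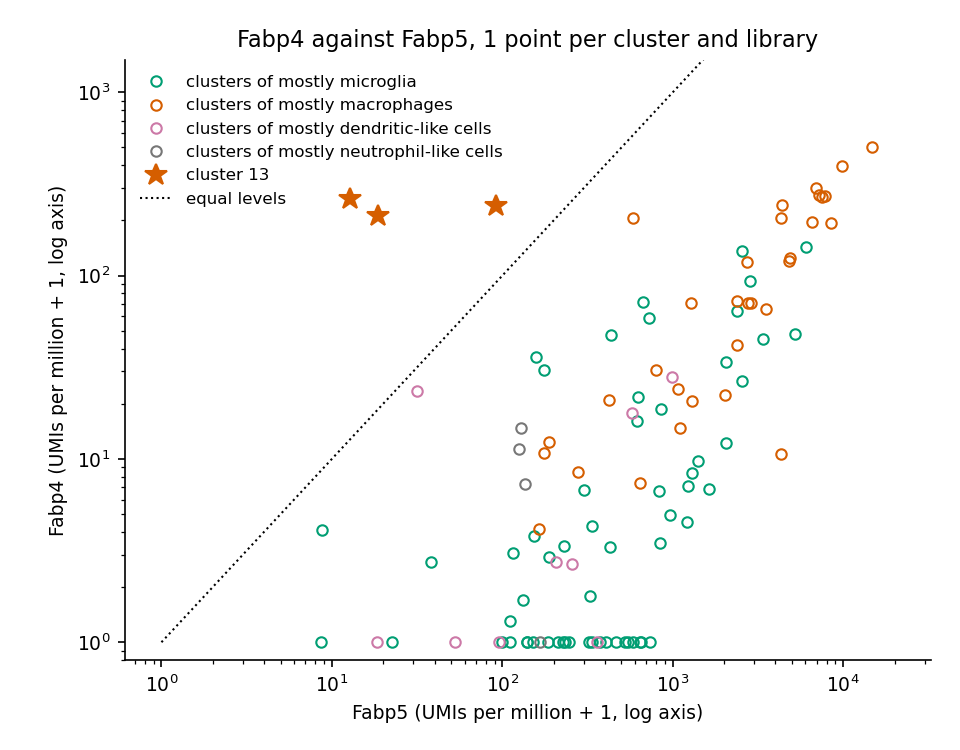
Fabp4 level against Fabp5 level (CPM + 1, log axes), each point 1 cluster in 1 library with at least 20 cells, coloured by main cell type, with a line of equal level. The 3 stars of cluster 13 lie above the line, at 210 to 260 CPM of Fabp4, and the macrophage points of other clusters lie well below it.

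Within clusters 3 and 4, of mostly and only microglia, the pooled Fabp5 level was higher at each later time. Cluster 3 went from 168 CPM in D1 to 226 in D2, 448 in D3, 1031 in D10 and 1198 in D21. Cluster 4 went from 37.0 CPM in D2 to 156 in D3, 358 in D10 and 521 in D21. Of its 139 D3 cells, 124 came from D3_mixed 3, and the other 15 stood at 122 CPM (counting interval 71.3 to 196). Without that library cluster 3 stood at 377 CPM in D3. Cluster 5 went from 118 CPM at D1 to 175, 1190, 614 and 1624 CPM at the later days, and its D3 value was 271 CPM without D3_mixed 3.
Among clusters of macrophages, clusters 9, 11 and 12 were not higher at each later time. Cluster 9 stood at 10171 CPM in D1, 5234 in D2, 14292 in D3, 2686 in D10 and 1259 in D21, with 1352 CPM at D3 without D3_mixed 3 (74 cells). Cluster 11 stood at 4621, 5688 and 2827 CPM at D1, D2 and D3, and cluster 12, which has 7 of 8 monocyte markers, at 374, 328 and 174 CPM. Cluster 14, of 118 cells with a median depth of 1488 UMIs, was higher at each later of these days, at 132, 332 and 387 CPM from 24, 52 and 32 cells.

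Most macrophages with Fabp4 had Fabp5 as well. After thinning, 718 of 3019 macrophages of D3_mixed 3 had Fabp4, and 709 of these (98.7%) also had Fabp5, against 88.9% of its other macrophages. In D1_infiltrating 1, 69 of 79 Fabp4-positive macrophages had Fabp5 (87.3%, against 31.2% of the others), and in D3_infiltrating 1, 41 of 56 (73.2%, against 23.6%). D2_mixed 2 had 80 of 81 (98.8%, against 58.7%). The share was higher among Fabp4-positive cells in each of these 4 libraries, and in all 11 macrophage sums with at least 5 such cells. With fewer, it was lower in D1_mixed 1 (0 of 1), D3_resident 2 (1 of 3) and D10_mixed 2 (1 of 3). These values are given without a test because cells of 1 library share their source. Among the microglia of D3_mixed 3, 14 of 32 Fabp4-positive cells had Fabp5 (43.8%, against 18.2%), and in D2_resident 1 it was 2 of 8 (against 12.3% of its other microglia). Of 15 Fabp4-positive dendritic-like cells 6 had Fabp5, with 0 of the 5 in D3_mixed 3. Of 15 such neutrophil-like cells 1 had Fabp5, with 0 of the 9 in D3_conflict 1.

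Among the other family members Fabp3, the heart form, was the most abundant. It had 10169 UMIs in 4780 cells, and Fabp7, the brain form, had 922 UMIs in 727 cells. Fabp1, Fabp12 and Fabp9 had 11, 4 and 2 UMIs, and Fabp2, Fabp6 and Pmp2 had none. Among relatives that bind retinoids, Crabp2 had 7 UMIs, Crabp1 6 and Rbp7 1, and Rbp2 had none.
Fabp3 was also higher in microglia after injury, at a lower level than Fabp5. Scaled by TMM, it stood at 1.69 ± 0.823 CPM in Ctrl, 10.1 ± 7.10 in D1, 24.5 ± 6.08 in D2, 77.9 ± 21.8 in D3, 93.4 ± 6.27 in D10 and 168 in D21. Against Ctrl its log2 fold change was 2.70 at D1 (SE 0.58, adjusted p = 0.00126), 5.66 at D3 (SE 0.57, adjusted p = 5.09e-06) and 6.93 at D21 (SE 0.65, adjusted p = 3.27e-06, 1 library, its spread assumed from the other time points), and D3 exceeded D1 by 2.96 (SE 0.38, adjusted p = 9.33e-05), all in edgeR. The D1 call was lost among mixed libraries alone. Fabp3 differed by sort, with a log2 fold change of -1.73 for infiltrating against resident (SE 0.22, adjusted p = 0.00281), a call that was lost with D3_conflict 1 as resident and kept in the other 17 alternatives. Its change at D10 against D1 also differed between macrophages and microglia (-3.48, adjusted p = 0.0163), which was lost without D1_mixed 2, D10_mixed 1 or D10_mixed 2.

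Of 6 listed neighbours of the pair on chromosome 3, 4 were tested in microglia. In all, 2 were called at D1 and 1 at D3, where 46.6 and 37.6% of all genes were, and none at D2, D10 or D21. Pag1, a membrane adaptor, fell by 3.85 on the log2 scale at D1 (adjusted p = 0.00115) and by 2.77 at D3 (adjusted p = 0.00501), and Impa1, an inositol phosphatase, rose by 1.15 at D1 (adjusted p = 0.00868). Zfand1 and Snx16 did not pass at any time. In macrophages none of the 4 passed in any contrast.

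Other genes of fatty acid handling in microglia changed in a gene-by-gene way, with counts read against the 46.6% of all genes called for D1, 29.7% for D2, 37.6% for D3, 10.3% for D10 and 6.98% for D21. For uptake and activation, 2 of 7 tested genes rose and 2 fell at D1 (1 to 2 and 0 to 2 over the alternatives). Cd36, a scavenger receptor that brings in fatty acids, went from 1.73 ± 1.85 CPM (TMM scale) at Ctrl to 64.6 ± 38.9 at D1 and 8.99 ± 0.941 at D10 (log2 fold change 5.58 at D1, adjusted p = 2.65e-05, and 2.78 at D10, adjusted p = 0.0192). Its highest mean was at D1, while that of Fabp5 was at D21. Acsl5, which activates fatty acids with coenzyme A, rose by 0.81 at D1 (adjusted p = 0.0194), and Acsl1, of the same family, fell by 1.54 (adjusted p = 0.00241). Acsl4 did not pass at D1 (0.72, adjusted p = 0.201).

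For lipolysis, 2 of 8 tested genes rose and 2 fell at D1, and 3 rose and 2 fell at D3. Over the alternatives 1 to 2 rose and 0 to 3 fell at D1, and 1 to 3 rose and 0 to 2 fell at D3. Lpl, the lipase that frees fatty acids from lipoproteins, went from 48.6 ± 8.53 CPM (TMM scale) at Ctrl to 1164 ± 104 at D1, 353 ± 76.9 at D3, 1012 ± 91.7 at D10 and 1358 at D21. It was above Ctrl by 4.71 at D1 (adjusted p = 1.77e-07) and by 4.46 at D10 (adjusted p = 2.09e-07). Lipa, the lysosomal acid lipase, was higher at D3 (0.80, adjusted p = 0.0432), while Daglb (-0.92, adjusted p = 0.082) and Pnpla2 (0.17, adjusted p = 0.745) did not pass at D1.

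For lipid droplets and esterification, 3 of 11 tested genes rose and 2 fell at D1, and 3 rose and none fell at D10. Among mixed libraries alone 1 rose at D1 and none at D10, and over all alternatives 1 to 4 rose at D1 and 0 to 3 at D10. Plin2, which coats lipid droplets, went from 24.4 ± 1.17 CPM (TMM scale) to 367 ± 157 at D1 and 175 ± 26.7 at D10, with log2 fold changes of 3.97 (adjusted p = 7.71e-06) and 2.90 (adjusted p = 0.000169). Plin3 rose by 1.15 at D1 (adjusted p = 0.0162) and Lpin2 fell by 2.01 (adjusted p = 0.00173). Soat1, which esterifies cholesterol, rose at D10 (1.20, adjusted p = 0.0467).

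Of 17 tested genes of fatty acid oxidation, 9 rose at D1, 6 on the following day, 8 at D3 and 1 each at D10 and D21, and none fell. Of all genes, 23.9, 17.6, 20.1, 8.06 and 6.12% rose at the same 5 times, and 8 of the 17 did not pass at D1. Over the alternatives the count ran from 1 to 9 at D1 and from 1 to 7 at D2, from 0 to 5 at D10 and from 0 to 1 at D21. At D3 it ran from 0, with pool as a term, to 9. The median log2 fold change of the 17 at D1 was 0.75, beside -0.01 over all genes. Etfb and Etfa, the subunits of the electron transfer flavoprotein, rose at D1 by 1.81 (adjusted p = 0.000173) and 1.77 (adjusted p = 0.0108), and Acadl, an acyl-CoA dehydrogenase, by 1.18 (adjusted p = 0.00825). Hadha did not pass (0.64, adjusted p = 0.215). For synthesis, 3 of 12 tested genes rose and 1 fell at D1 (0 to 3 and 1 over the alternatives): the desaturase Scd2 rose by 1.34 (adjusted p = 0.0138), Elovl1 rose by 0.78 (adjusted p = 0.0486), and the transcription factor Mlxipl fell by 3.62 (adjusted p = 6.19e-06), while Acly gave 0.21 (adjusted p = 0.632).

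Of the lipid-activated nuclear receptors, 1 of 7 tested rose and 2 fell at D1 (0 to 2 each over the alternatives). Ppard, the receptor to which Fabp5 is known to bring ligands, fell by 1.70 at D1 (adjusted p = 0.00221) and gave -0.44 at D10 (adjusted p = 0.501), and Rxrb fell by 0.90 at D1 (adjusted p = 0.0222). Nr1h2 (0.69, adjusted p = 0.0721) and Rxra (-0.04, adjusted p = 0.946) did not pass. Of the listed targets of peroxisome proliferator-activated receptors, a list that shares Lpl, Plin2, Cd36 and others with those above, 7 of 10 tested rose and 1 fell at D1, and 5 rose and 1 fell at D10. Over the alternatives 4 to 7 rose at D1 and 1 to 7 at D10, with 2 at D10 without Ctrl_mixed 1 and 3 without Ctrl_resident 1. Ucp2, a mitochondrial carrier, rose by 2.13 at D1 (adjusted p = 0.000531) and Txnip fell by 1.89 (adjusted p = 0.00308). The median of the 10 at D1 was 1.66.

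In macrophages the same lists had no call at D2 or D3 against D1, where 0% of all genes were called. At D10 against D1, with 14.4% of all genes called and 7.04% called downward, 4 of 8 tested droplet genes fell and none rose, with a median log2 fold change of -1.04 beside 0.01 over all genes. In the same sums the macrophage markers went from 10674 to 18038 CPM at D1 to 2415 to 5432 at D10, and the microglia markers from 319 to 1408 CPM to 1027 to 3807. The part of these shifts in the droplet genes was not tested. Plin2 fell by 3.03 (SE 0.40, adjusted p = 0.000598), Hilpda, an inhibitor of droplet lipolysis, by 5.22 (adjusted p = 0.00484) and Agpat4 by 1.38 (adjusted p = 0.00934), while Soat1 gave -0.54 (adjusted p = 0.219). Over the alternatives that give this contrast, 3 to 5 droplet genes fell. Cd36 fell by 2.15 (adjusted p = 0.00734), the single call of 6 uptake genes, and Nr1h3, the liver X receptor of macrophages, fell by 2.47 (adjusted p = 0.0112), the single call of 8 receptors. In the same contrast 1 of 6 lipolysis genes fell, 2 of 16 oxidation genes rose and 1 fell, none of 7 synthesis genes was called, and 2 of 9 receptor targets fell. At D21 against D1, with 3.56% of all genes called and 1.61% called downward, 4 of the 8 droplet genes passed downward, and none did without D1_infiltrating 2, without either D21 library or with pool as a term. Fabp5 and Fabp4 were not called at D10 or D21.

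Between the sorts, with 11.2% of all genes called (5.17% higher and 6.04% lower in infiltrating libraries), 4 of 12 droplet genes were higher in infiltrating libraries, among them Agpat4 (1.82, adjusted p = 0.00171). Of 8 lipolysis genes 3 were lower, among them Lpl (-2.88, adjusted p = 0.0145) and Daglb (-1.83, adjusted p = 0.0141), and of 10 receptors 4 were higher and 1 lower. With D3_conflict 1 counted as resident no gene at all was called, so all of these calls were lost. Without D2_infiltrating 1 or D2_resident 1, 1 droplet and 1 lipolysis gene were called, and without D3_infiltrating 1, 2 and 0.

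The genes whose levels tracked the pair most closely were found by Pearson's r of log2(CPM + 1), as a description over points that share libraries and depth. Over the 17 microglia sums these were, for Fabp5, Gabarap (r = 0.962), Wfdc17 (0.946), Clic4 (0.936), Bri3 (0.933) and Atox1 (0.929), and for Fabp4, Pgls (0.822), Tmem234 (0.813), Ten1 (0.784), Mvb12a (0.765) and Kxd1 (0.757). Over the 15 macrophage sums they were, for Fabp5, Stx8 (0.966), Atp6v1g1 (0.963), Spsb2 (0.956), Blvrb (0.953) and Ftl1 (0.948), and for Fabp4, Klhdc4 (0.901), Fuca2 (0.868), Sec14l1 (0.867), Lxn (0.849) and Itgb1bp1 (0.839). Over the 16 clusters they were, for Fabp5, Gpnmb (0.898), Vat1 (0.875), Akr1a1 (0.858), Dap (0.852) and Pf4 (0.844), and for Fabp4, Tmem192 (0.881), Stx8 (0.873), Znhit1 (0.869), F13a1 (0.858) and Mvb12a (0.843). The 2 genes themselves correlated at 0.640 over microglia sums, 0.810 over macrophage sums and 0.777 over clusters, below the 5 closest genes of each in all 3 sets.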

How the data were processed

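Each of the 25 libraries has a matrix of UMI counts, deposited unnormalised by the authors, and a further deposited table gives every cell's type, cluster and pool codes and its percent of mitochondrial counts. Per the submitters' processing notes, Cell Ranger 3.1.0 and GRCm38 (mm10) were used. The gene annotation and the cell filters are not given in the sources used here. Cells had 713 UMIs or more and at most 22.6% mitochondrial counts. The 2 whole-series matrices were not used here. No cell filter, doublet caller or subtraction of free RNA was applied, and 127 barcodes occur in 2 libraries each (254 cells).

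Cells were named from their codes by the marker list with the most members at 20 or more CPM and at least 2 times their level elsewhere after addition of 5 CPM. Counts were summed per library and cell type (at least 20 cells) and tested with the quasi-likelihood method of edgeR 4.0.16 (R 4.3.3) after filterByExpr and TMM scaling, with sex as a term (and time, for the sort), 2-sided, adjusted over all genes tested at 0.05. DESeq2 1.42.0 and limma 3.58.1 gave alternatives. Other alternatives were median-of-ratios scaling, no filter on low counts, pool or sort as a term, other minimum cell numbers, leaving out clusters or single sorts, a replicate block and leaving out each library. Plain CPM are UMIs of the gene per 1000000 UMIs of the summed cells, and values named as TMM scaled are stated so. For shares, cells were thinned to 1000 UMIs, which left out 130 shallower cells (30 microglia, 57 macrophages, 15 dendritic-like, 28 neutrophil-like). Intervals and floors cover counting error only. On data simulated from these counts with 200 changed genes, the test recovered 195 for microglia D10 against D3 (10496 genes), 197 for macrophages D10 against D1 (8290 genes), 200 for the sort (11066 genes) and 119 for the macrophage minus microglia difference (11044 genes). False calls numbered 7, 14, 12 and 3. The changed genes stood above 20 CPM, and the raised ones had median fitted log2 fold changes of 1.96 to 2.08. Counts were drawn with the same spread for every gene and no pool, sort or library effect. The recovery therefore does not carry over to genes that vary more between libraries, such as Fabp5 in macrophages.

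Genes named are Fabp4 and Fabp5, every measured fatty acid binding protein, up to 4 members of each pathway list with the highest mean level, and the 5 genes with the highest Pearson r to each member among genes with a mean of 20 CPM or more. The 2 genes and the lists were chosen with earlier results of these data known. A few listed genes are not reported here. Transcripts were compared with Biopython 1.88 and blastn 2.17.0, and other steps used Python 3.11.15, numpy 2.4.6, pandas 2.3.3, scipy 1.17.1 and matplotlib 3.10.9.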

Additional observations from a re-analysis of the deposited data

Results flagged for a closer look

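The D3_mixed 3 library lay far above the other 4 tested D3 libraries in microglia on 3 measures. Its Fabp5 level was 1157 CPM, with the next at 476 CPM, a gap of 0.753 of the range. Its Fabp4 level was 79.2 CPM, with the next at 5.96 CPM, a gap of 0.950 of the range, and its share of Fabp4-positive microglia was 6.15%, with the next at 0.935%, a gap of 0.893 of the range. These are 3 of 12 groups tested for a sample that stands apart, of which chance alone marks about 1 in 20.

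Cells outside the tests also carried Fabp5, above its level in the microglia of both control libraries. The macrophages of D3_conflict 1 stood at 3193 CPM of Fabp5 and 104 CPM of Fabp4. The macrophages of resident libraries stood at 3927 CPM of Fabp5 at D2, 3220 and 3261 CPM at D3 and 4216 CPM at D10. The cells coded as microglia in infiltrating libraries stood at 3044 CPM of Fabp5 in D10_infiltrating 2 (36 cells) and 1722 CPM in D21_infiltrating 1 (41 cells).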

How the results depend on the processing

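Of 751 alternative values with a test, 691 kept the direction and the side of the threshold, 32 changed sign, 18 passed where the reported value did not and 10 no longer passed. Microglial Fabp5 against Ctrl kept its direction throughout, and lost its call once (D10, mixed libraries alone, 7.42, adjusted p = 0.0541). For Fabp5 D3 against D1 in microglia, mixed libraries alone gave 1.51 (adjusted p = 0.0881) and the numbered libraries alone 1.56 (0.0911). The cause of the changes given here was not tested.

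DESeq2 gave no adjusted p for Fabp4 in any microglial contrast. For Fabp4 against Ctrl the adjusted p was 0.0155 at D1 with no expression filter, and at D3 0.518 with pool as a term and 0.609 in mixed libraries alone. Fabp4 D3 against D1 was 5.28 (adjusted p = 0.0161) without cluster 2. With pool as a term, D10 against D3 in microglia became -0.086 for Fabp5 and 0.39 for Fabp4, Fabp4 D2 against D1 in macrophages -1.07, and Fabp5 by sort -0.23, which was -0.046 with D3_conflict 1 as resident. In infiltrating libraries alone, macrophage Fabp5 was -1.03 at D2, -1.26 at D3 and -2.98 at D21 (adjusted p = 0.0160) against D1 and 0.14 for D10 against D3, and Fabp4 was -2.39, -0.38 and, at D10, -1.35 (adjusted p = 0.0175) against D1. D10 against D3 passed for Fabp5 in DESeq2 (-3.41) and with no filter (-3.47), and for Fabp4 with no filter (-3.29). For macrophages minus microglia, D3 against D1 became -0.39 (Fabp5) and -0.63 (Fabp4) without cluster 9 and -1.46 (Fabp4) in limma voom, and Fabp5 D10 against D1 was -2.65 in DESeq2, -2.71 in voom and -2.98 without cluster 9.

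Whether the replicate numbers pair the mixed libraries is not settled here. Deviations of same-numbered libraries correlated at -0.288 to 0.220 (7 pairs), those of different numbers at -0.248 to 0.288 (14 pairs). All of these ends come from pairs with D10. It has 2 numbered libraries, whose deviations from their mean are exact opposites, so each correlation recurs with its sign reversed. Between D1 and D3, same-numbered libraries correlated at 9.72e-05, 0.199 and 0.156, and those of different numbers at -0.202 to 0.126. With the replicate block in the numbered libraries, microglial D3 against D1 was 1.21 for Fabp5 (adjusted p = 0.0313) and 2.37 for Fabp4 (0.0173), and Fabp4 D10 against D3 was 1.18. The block called 1260 genes at D3 against D1 and 827 at D10 against D3, beside 1239 and 129 in the same libraries without it.

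Leaving out 1 library at a time, Fabp4 against Ctrl had adjusted p-values of 0.0163 to 0.681 at D1 and 0.00406 to 0.124 at D3. In microglia D3 against D1 ran from 0.88 to 1.73 for Fabp5 and from -0.68 to 7.02 for Fabp4, and Fabp4 D10 against D3 from -2.64 to 0.22. In macrophages D2 against D1 ran from -0.25 to 1.65 (Fabp5) and -0.44 to 1.58 (Fabp4), D3 against D1 from -0.49 to 3.16 and -0.0063 to 3.27, and Fabp5 D10 against D3 from -4.31 to -0.66. By sort the ranges were -0.38 to 0.29 and -0.28 to 0.32. Macrophages minus microglia ran from -1.39 to 1.62 and -5.10 to 1.23 for D3 against D1, and from -3.35 to -2.17 and -5.88 to 0.15 for D10 against D1.

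Shares of Fabp5-positive microglia at 2000 UMIs were 13.9% in D1, 14.8% in D2, 26.96% in D3, 38.1% in D10 and 61.7% in D21. Unthinned they were 4.74% at Ctrl, 18.9%, 18.8%, 27.7%, 48.2% and 70.3%, and in macrophages 45.6% at D1 and 63.3% at D10. Over all alternatives the genes called in microglia ranged around 5034 in D1 from 1206 to 5398, around 3210 in D2 from 718 to 3781, around 4064 in D3 from 255 to 4501, around 1111 in D10 from 71 to 2404, around 754 in D21 from 209 to 1118, around 2030 for D3 against D1 from 1004 to 2534 and around 743 for D10 against D3 from 0 to 1578. In macrophages they ranged from 0 to 9 in D2, 0 to 88 in D3, 376 to 1783 in D10 (1231 reported), 14 to 1063 in D21 (305) and 8 to 477 for D10 against D3 (58). By sort they ranged from 0 to 1910 (1295), and for macrophages minus microglia from 2 to 527 (10) and 107 to 2264 (1444).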

Other observations

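Fabp3 was the most abundant of the other family members in both main cell types, at 47.9 CPM over all microglia, 63.0 CPM over all macrophages, 1.99 CPM over dendritic-like cells and 1.66 CPM over neutrophil-like cells. Among clusters it stood at 153 CPM in cluster 9, 101 CPM in cluster 3 and 1.88 CPM in cluster 1, the cluster of the control microglia. In macrophages it passed in no time contrast of edgeR's test, with log2 fold changes of 2.34 at D3 (adjusted p = 0.644) and -0.26 at D10 (adjusted p = 0.859) against D1. Fabp7 was also found in both, at 1.45 CPM over all microglia and 6.71 CPM over all macrophages. In macrophages it gave -0.85 at D3 (adjusted p = 0.876) and -0.77 at D10 (adjusted p = 0.597), at a mean of 6.65 ± 4.74 CPM (TMM scale) at D1.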
